A study of Mus musculus with 15 samples.

Results

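A set of 10 genes of the epidermal desmosome was followed in mouse skin: the desmogleins Dsg1a, Dsg2 and Dsg3, the desmocollins Dsc1, Dsc2 and Dsc3, desmoplakin (Dsp), the plakophilins Pkp1 and Pkp3, and corneodesmosin (Cdsn). They were chosen by name, and all 10 were found among the 54532 genes of the skin table. The study compared 4 groups of 3 libraries of whole skin: skin of mice labelled Trpv3 knockout given MC903 for 7 days, wild type skin given MC903 for 7 days, untreated skin labelled Trpv3 knockout, and untreated wild type skin. MC903, or calcipotriol, is an analogue of vitamin D whose use on mouse skin causes an atopic dermatitis-like inflammation. TRPV3 is a calcium-permeable channel of keratinocytes, and the series concerns how it acts together with the protease-activated receptor PAR2 and the alarmin IL-33. Conditional knockouts are what the series describes, but its labels name neither the Cre driver and the cells that lose the gene, nor the strain, the age, the body site or a vehicle for the untreated skin.

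Desmosomes rivet neighbouring keratinocytes together. Desmogleins and desmocollins are cadherins that bridge the gap between the cells, plakoglobin (Jup) and plakophilins bind their tails inside the cell, and desmoplakin ties this plaque to keratin filaments. In epidermis the make-up of the cadherins changes with depth: desmoglein 3 and desmocollin 3 are most abundant in the deep layers, desmoglein 1 and desmocollin 1 in the upper ones. In the cornified layer corneodesmosin joins the extracellular part, and kallikrein proteases cut it when the dead cells are shed.

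Levels are FPKM, fragments per kilobase of gene with a scaling factor per library. This is a level per length, so levels of different genes may be set side by side, given the lengths used. Of the members only Dsg3 had other gene ends in the authors' annotation (chr18:20510304-20541310) than in GENCODE (chr18:20510274-20547459). Whether this alters Dsg3 levels beside those of other genes was not tested. The libraries held 16869716 to 18485698 reads on genes, and the 10 members held 122 to 64480 reads per library. The scaling did not follow reads on genes alone. Each MC903 wild type library had more FPKM per read than any untreated wild type library. Differences are log2 fold changes of FPKM + 0.5 with their standard error (SE), and a gene is said to have risen or fallen where the limma p-value adjusted over all 17646 genes tested was below 0.05. Separate animals are not stated for the 3 libraries within a group, and p-values therefore cover the spread among those libraries alone, which may be technical. Trpv3 itself, at chr11:73267388-73300363 of mm10, stood at 6.82, 6.78 and 4.73 FPKM in MC903 skin labelled knockout against 16.1, 17.0 and 19.0 in MC903 wild type skin, and at 3.17, 3.64 and 2.62 in untreated skin labelled knockout against 2.06, 2.71 and 1.13 in untreated wild type skin. In untreated skin labelled knockout Trpv3 was thus not lower, with 0.61 ± 0.22 for its log2 fold change (limma adjusted p = 0.1), and since these are sums over all exons they do not show whether part of the gene is lost. The genotype is therefore given as the labels give it. Antisense genes share exon bases with Dsg2 (Gm16090, at most 0.0885 FPKM) and Dsp (Gm10129, at most 0.267 FPKM), and it is not stated whether counting used strand. In RNA of whole skin, fewer keratinocytes and less RNA per keratinocyte cannot be told apart.

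MC903 raised most of the desmosome genes in wild type skin and fewer of them, by less, in skin labelled knockout. In wild type skin 8 of 10 members rose and 1 fell, where 63.0% of all genes tested passed, 32.6% higher and 30.3% lower. In skin labelled knockout 6 rose and 2 fell, where 47.9% of all genes passed, 25.0% higher and 23.0% lower. The members' median log2 fold change was 0.86 in skin labelled knockout and 2.44 in wild type skin, while the medians of all genes tested were -0.00 and 0.02. Libraries of MC903 and untreated skin did not overlap for 9 of 10 members in either genotype, Dsp being the exception in skin labelled knockout and Dsg1a in wild type skin. Over all genes 63.0% and 64.1% did not overlap in those comparisons.

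**Figure D1:**
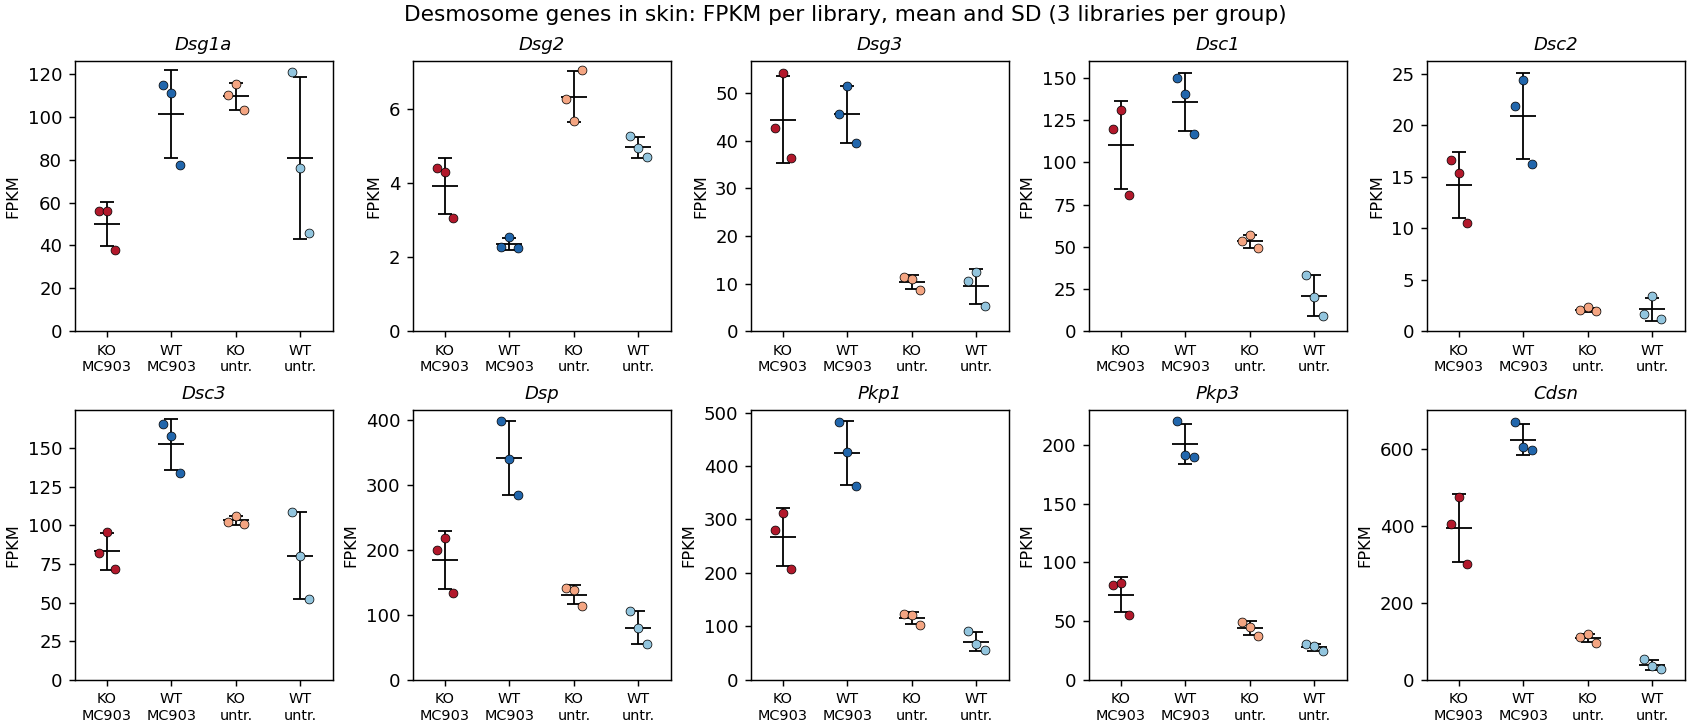
FPKM of each desmosome gene (linear axis from 0, a scale of its own per gene) in the 3 libraries of each group, with the mean and SD; untr. stands for untreated and KO for labelled knockout. MC903 wild type libraries are the highest for Dsp, Pkp1, Pkp3, Cdsn and Dsc3, whereas the highest libraries of Dsg2 are untreated ones.

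The 6 desmogleins and desmocollins lie together within chr18:19960930-20604521 of mm10, and they did not move as a block. Dsg3 (ENSMUSG00000056632), the desmoglein of the deep layers, stood at 42.8, 54.3 and 36.3 FPKM in MC903 skin labelled knockout and at 11.4, 11.0 and 8.66 FPKM in untreated skin labelled knockout. In wild type skin it stood at 45.7, 51.5 and 39.5 FPKM after MC903 and at 10.6, 12.3 and 5.24 FPKM without treatment. Every MC903 library lay above every untreated one in both genotypes, and the rises were 4.11-fold in skin labelled knockout (2.04 ± 0.26, limma adjusted p = 0.00011) and 4.89-fold in wild type skin (2.29 ± 0.26, limma adjusted p = 1.9e-05).

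Dsg1a (ENSMUSG00000069441), a mouse copy of the desmoglein of the upper layers, took another course. It stood at 56.0, 56.1 and 38.1 FPKM in MC903 skin labelled knockout and at 110.3, 115 and 103 FPKM in untreated skin labelled knockout, groups that do not overlap. Wild type libraries stood at 115, 111 and 77.6 FPKM after MC903 and at 121, 76.0 and 45.8 FPKM without treatment, groups that overlap. Dsg1a thus fell after MC903 in skin labelled knockout (-1.14 ± 0.29, limma adjusted p = 0.0081) and did not pass in wild type skin (0.41 ± 0.29, limma adjusted p = 0.25), where it passed without untreated wild type replicate 1 (0.75, limma adjusted p = 0.023) and had the other sign when libraries were scaled to equal sums (-0.07). Mice carry near-identical copies of this gene, Dsg1b and Dsg1c, between which reads may be misassigned. Dsg1b read 34.8 to 59.5 FPKM in MC903 skin labelled knockout against 18.5 to 20.6 untreated, and 42.8 to 63.6 FPKM in MC903 wild type skin against 5.35 to 12.5 untreated. Dsg1b therefore held 47.6% to 51.4% of the summed FPKM of the 3 copies in MC903 skin labelled knockout against 15.1% to 15.5% untreated, and 35.3% to 35.4% in MC903 wild type skin against 9.34% to 11.1% untreated. The sum of the 3 copies was 99.0 ± 22.7 FPKM in MC903 skin labelled knockout and 129 ± 7.28 in untreated skin labelled knockout, and 158 ± 32.3 in MC903 wild type skin and 90.6 ± 41.7 in untreated wild type skin (SD, n = 3 each).

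Dsg2 (ENSMUSG00000044393), the desmoglein of simple epithelia and heart, was scarce and went down. It stood at 4.41, 4.30 and 3.05 FPKM in MC903 skin labelled knockout and at 6.26, 5.67 and 7.04 FPKM in untreated skin labelled knockout. In wild type skin it stood at 2.27, 2.54 and 2.24 FPKM after MC903 and at 5.26, 4.94 and 4.69 FPKM without treatment. The MC903 libraries lay below the untreated ones in both genotypes, and Dsg2 fell in skin labelled knockout (-0.64 ± 0.13, limma adjusted p = 0.0019) and in wild type skin (-0.94 ± 0.13, limma adjusted p = 7.2e-05).

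Among the desmocollins, Dsc2 (ENSMUSG00000024331), the form found in nearly all epithelia, rose in both genotypes. It stood at 16.7, 15.4 and 10.5 FPKM in MC903 skin labelled knockout and at 2.04, 2.30 and 1.91 FPKM in untreated skin labelled knockout. Wild type libraries stood at 21.9, 24.5 and 16.3 FPKM after MC903 and at 1.71, 3.41 and 1.21 FPKM without treatment. The groups lay far apart in both genotypes (2.49 ± 0.27, limma adjusted p = 3.9e-05 in skin labelled knockout, and 3.10 ± 0.27, limma adjusted p = 2.6e-06 in wild type skin).

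Dsc1 (ENSMUSG00000044322), the desmocollin of the upper layers, stood at 119, 131 and 80.9 FPKM in MC903 skin labelled knockout and at 53.2, 56.8 and 49.4 FPKM in untreated skin labelled knockout. In wild type skin it stood at 150.0, 140.3 and 117 FPKM after MC903 and at 33.3, 20.5 and 9.20 FPKM without treatment, untreated replicate 3 being the lowest. It rose in wild type skin (2.83 ± 0.35, limma adjusted p = 3.7e-05). The rise in skin labelled knockout (1.02 ± 0.35, limma adjusted p = 0.033) did not pass without MC903 replicate 1 or 2 labelled knockout (limma adjusted p = 0.089 and 0.11), nor without untreated replicate 1, 2 or 3 labelled knockout (limma adjusted p = 0.074, 0.061 and 0.087), nor with libraries scaled to equal sums (limma adjusted p = 0.084).

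Dsc3 (ENSMUSG00000059898), the desmocollin of the deep layers, stood at 82.3, 95.6 and 71.7 FPKM in MC903 skin labelled knockout and at 102, 106 and 101 FPKM in untreated skin labelled knockout. Wild type libraries stood at 166, 158 and 134 FPKM after MC903 and at 108, 80.3 and 52.3 FPKM without treatment. MC903 libraries lay just below the untreated ones in skin labelled knockout (-0.32 ± 0.21, limma adjusted p = 0.24, not past the threshold, but 0.041 in a fit of those groups alone) and above them in wild type skin, where it rose (0.98 ± 0.21, limma adjusted p = 0.002). With libraries scaled to equal sums the wild type rise was 0.50 (limma adjusted p = 0.078).

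Among the plaque proteins, Dsp (ENSMUSG00000054889, chr13:38151294-38198577), the link to keratin, stood at 200.5, 218 and 134 FPKM in MC903 skin labelled knockout and at 141, 138 and 114 FPKM in untreated skin labelled knockout. In wild type skin it stood at 399, 340.5 and 285 FPKM after MC903 and at 106, 80.3 and 54.8 FPKM without treatment. It rose 4.34-fold in wild type skin (2.12 ± 0.24, limma adjusted p = 1.9e-05). In skin labelled knockout the groups overlapped and it did not pass (0.46 ± 0.24, limma adjusted p = 0.14), though it did without MC903 replicate 3 labelled knockout (0.68, limma adjusted p = 0.045).

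Pkp1 (ENSMUSG00000026413, chr1:135871395-135919207), the plakophilin of the upper epidermis, stood at 281, 313 and 208 FPKM in MC903 skin labelled knockout and at 124, 121 and 102 FPKM in untreated skin labelled knockout. Wild type libraries stood at 483, 426 and 363 FPKM after MC903 and at 90.8, 66.7 and 56.3 FPKM without treatment. Neither pair of groups overlapped, and Pkp1 rose in skin labelled knockout (1.19 ± 0.20, limma adjusted p = 0.00054) and in wild type skin (2.58 ± 0.20, limma adjusted p = 8.4e-07).

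Pkp3 (ENSMUSG00000054065, chr7:141078218-141090510), a plakophilin of all epidermal layers, stood at 80.6, 82.0 and 55.1 FPKM in MC903 skin labelled knockout and at 49.2, 45.1 and 37.5 FPKM in untreated skin labelled knockout. In wild type skin it stood at 220.2, 191 and 190.0 FPKM after MC903 and at 30.3, 28.5 and 24.3 FPKM without treatment. The rise was 1.63-fold in skin labelled knockout (0.71 ± 0.16, limma adjusted p = 0.0039) and 7.14-fold in wild type skin (2.84 ± 0.16, limma adjusted p = 1.2e-07).

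Cdsn (ENSMUSG00000039518, chr17:35552128-35557180), the corneodesmosome protein, had the widest range of all. It stood at 405, 475 and 301 FPKM in MC903 skin labelled knockout and at 111, 119 and 96.1 FPKM in untreated skin labelled knockout. Wild type libraries stood at 669, 604 and 596 FPKM after MC903 and at 53.2, 35.8 and 27.5 FPKM without treatment. No groups overlapped, and Cdsn rose 3.57-fold in skin labelled knockout (1.83 ± 0.22, limma adjusted p = 7.2e-05) and 16.4-fold in wild type skin (4.04 ± 0.22, limma adjusted p = 9.6e-08).

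Dsp and Cdsn, on different chromosomes, were both higher after MC903 in wild type skin, and the 250 bases before each start site (RefSeq, GRCm38.p6, plus strand) are shown to set their sequences side by side. The regions are chr13:38151044-38151293 for Dsp and chr17:35551878-35552127 for Cdsn, each ending next to the gene start given by the authors. Capitals mark matches to the GC box GGGCGG on either strand.
Dsp: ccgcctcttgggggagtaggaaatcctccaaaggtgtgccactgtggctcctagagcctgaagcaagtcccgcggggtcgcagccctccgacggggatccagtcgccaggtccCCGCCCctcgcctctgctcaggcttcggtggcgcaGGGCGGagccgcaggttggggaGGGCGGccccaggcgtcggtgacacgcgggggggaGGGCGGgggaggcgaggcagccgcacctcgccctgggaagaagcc
Cdsn: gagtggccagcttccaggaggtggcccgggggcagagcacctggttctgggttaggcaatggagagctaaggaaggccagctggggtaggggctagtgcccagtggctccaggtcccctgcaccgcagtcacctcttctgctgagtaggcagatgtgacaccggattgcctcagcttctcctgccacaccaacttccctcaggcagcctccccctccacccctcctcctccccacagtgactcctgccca
The Dsp region held 4 GC boxes, 137, 102, 80 and 45 bases before the start, and the Cdsn region none, where 32.7% of 32851 promoters of the same length held at least 1. Neither held the AP-1 motif TGANTCA, the grainyhead-like motif AACNGGTT or a direct-repeat vitamin D response element, which 6.75%, 1.79% and 0.00609% of all promoters held. These are matches of letters, on both strands and with no overlap between motifs, and not binding sites.

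**Figure D2:**
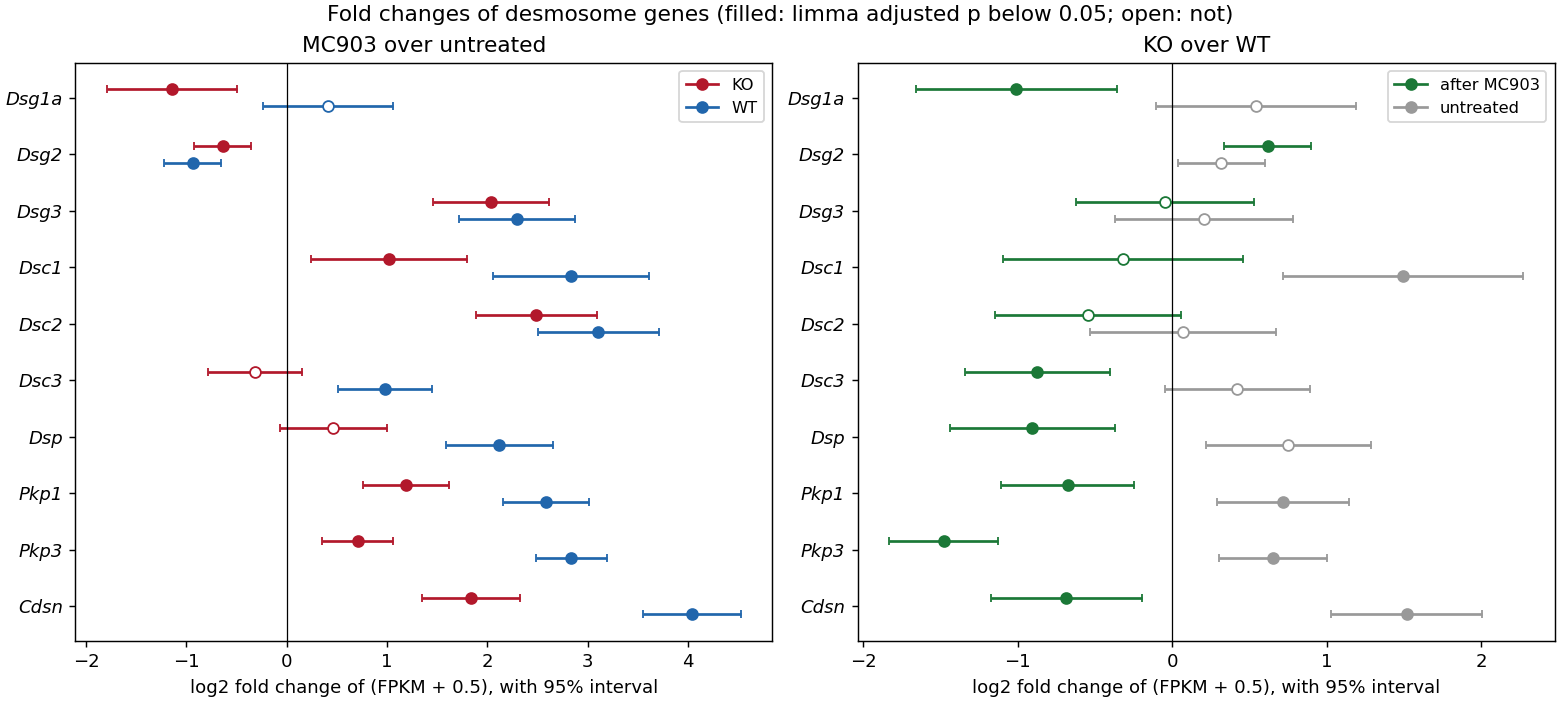
Log2 fold changes of FPKM + 0.5 with 95% intervals for each desmosome gene, MC903 over untreated (left, KO for labelled knockout, and WT) and KO over WT (right, after MC903 and untreated). Filled points passed a limma adjusted p of 0.05; the KO point lies to the left of the WT point for every gene but Dsg2 in the left panel.

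The MC903 response of the desmosome genes differed between genotypes. For 7 of 10 members the response was smaller, or turned to a fall, in skin labelled knockout, where 39.7% of all genes passed for this difference, 19.7% lower and 20.0% higher. The differences of log2 response, skin labelled knockout minus wild type, were -2.20 ± 0.31 for Cdsn (limma adjusted p = 0.00043), -2.13 ± 0.23 for Pkp3 (limma adjusted p = 1e-04) and -1.81 ± 0.50 for Dsc1 (limma adjusted p = 0.015). They were -1.66 ± 0.34 for Dsp (limma adjusted p = 0.0034), -1.55 ± 0.42 for Dsg1a (limma adjusted p = 0.013), -1.39 ± 0.28 for Pkp1 (limma adjusted p = 0.0026) and -1.30 ± 0.30 for Dsc3 (limma adjusted p = 0.0063). All 7 passed under each of the 20 alternatives run, scalings and left-out libraries included. Each difference is the log2 gap between genotypes after MC903 less the untreated gap. Those 2 gaps were -0.32 and 1.49 for Dsc1, -0.69 and 1.52 for Cdsn, and -0.68 and 0.72 for Pkp1. They were -1.48 and 0.65 for Pkp3, -0.91 and 0.75 for Dsp, -1.01 and 0.54 for Dsg1a, and -0.88 and 0.42 for Dsc3. For Dsc1 and Cdsn the larger part thus lay in untreated skin. The genes whose difference did not pass were Dsg3 (-0.25, 95% interval -1.07 to 0.57), Dsc2 (-0.62, -1.47 to 0.23) and Dsg2 (0.30, -0.10 to 0.70). These intervals still hold sizeable differences, and Dsc2 passed without untreated wild type replicate 2 (-0.95, limma adjusted p = 0.027) and Dsg2 without MC903 replicate 3 labelled knockout (0.45, limma adjusted p = 0.033) and with libraries scaled to equal sums (0.53, limma adjusted p = 0.047).

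After MC903, 6 members were lower in skin labelled knockout than in wild type skin and Dsg2 was higher, where 52.1% of all genes passed, 26.1% lower and 25.9% higher. Pkp3 differed most, at 72.6 ± 15.1 FPKM in skin labelled knockout against 200.5 ± 17.1 in wild type skin (-1.48 ± 0.16, limma adjusted p = 3e-05). Dsp averaged 184 ± 44.5 against 342 ± 57.1 FPKM (-0.91 ± 0.24, limma adjusted p = 0.009) and Dsc3 83.2 ± 11.98 against 153 ± 16.5 (-0.88 ± 0.21, limma adjusted p = 0.0053). Dsg1a (-1.01 ± 0.29, limma adjusted p = 0.014), Pkp1 (-0.68 ± 0.20, limma adjusted p = 0.013) and Cdsn (-0.69 ± 0.22, limma adjusted p = 0.022) passed too. These last 3 did not pass without MC903 replicate 3 labelled knockout (limma adjusted p = 0.059, 0.057 and 0.093) or without MC903 wild type replicate 1 (limma adjusted p = 0.051, 0.054 and 0.069). Dsg2 stood at 3.92 ± 0.76 against 2.35 ± 0.16 FPKM (0.62 ± 0.13, limma adjusted p = 0.0021). Dsg3 (44.5 ± 9.12 against 45.6 ± 6.01), Dsc2 (14.2 ± 3.24 against 20.9 ± 4.17) and Dsc1 (110.4 ± 26.2 against 136 ± 17.0) overlapped between genotypes and did not pass (limma adjusted p = 0.9, 0.12 and 0.47), though Dsc2 did with voom on reads (limma adjusted p = 0.044). Of the members 7 of 10 did not overlap, where 62.7% of all genes did not. Scaling libraries to equal sums moved the median of all genes by 0.23 in this comparison. On that scale only Pkp3 remained lower at the threshold, and the other 5 had values of -0.71 to -0.38 (limma adjusted p = 0.056 to 0.19), against a median of 0.21 over all genes.

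Without treatment the direction was the other one. In all, 4 members were higher in skin labelled knockout than in wild type skin and none was lower, where 11.7% of all genes passed, 7.15% higher and 4.55% lower. Cdsn stood at 108 ± 11.4 FPKM in skin labelled knockout against 38.8 ± 13.1 in wild type skin (1.52 ± 0.22, limma adjusted p = 0.003), and it passed in all 15 alternatives. Dsc1 stood at 53.1 ± 3.70 against 21.0 ± 12.1 FPKM (1.49 ± 0.35, limma adjusted p = 0.022), Pkp3 at 43.9 ± 5.94 against 27.7 ± 3.13 (0.65 ± 0.16, limma adjusted p = 0.026) and Pkp1 at 116 ± 11.6 against 71.3 ± 17.7 (0.72 ± 0.20, limma adjusted p = 0.038). Without untreated replicate 1 or 2 labelled knockout, or without untreated wild type replicate 2, Cdsn was the only member to pass, and the other 3 had a limma adjusted p of 0.051 to 0.12. Pkp1 also missed the threshold when untreated replicate 3 of the skin labelled knockout was left out (limma adjusted p = 0.061) and without untreated wild type replicate 3 (limma adjusted p = 0.069), and Dsc1 without the first of these (limma adjusted p = 0.054). Dsp (0.75 ± 0.24, limma adjusted p = 0.07) and Dsc3 (0.42 ± 0.21, limma adjusted p = 0.23) did not pass, and both did without untreated wild type replicate 1 (limma adjusted p = 0.033 and 0.048), Dsp also with voom on reads (limma adjusted p = 0.038). Dsg1a, Dsg2, Dsg3 and Dsc2 had log2 fold changes of 0.54, 0.32, 0.21 and 0.07 (limma adjusted p = 0.26, 0.13, 0.66 and 0.89). Libraries of 6 members did not overlap, where 31.1% of all genes did not.

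The order of levels among the members shifted with treatment. In MC903 skin labelled knockout the highest were Cdsn (393 ± 87.7 FPKM), Pkp1 (267 ± 53.8) and Dsp (184 ± 44.5), each overlapping the next. In MC903 wild type skin Cdsn (623 ± 39.8 FPKM) stood clear of Pkp1 (424 ± 59.9), which overlapped Dsp (342 ± 57.1). In untreated skin labelled knockout Dsp, Pkp1, Dsg1a, Cdsn and Dsc3 lay at 103 to 131 FPKM, each overlapping the next in order. Untreated wild type skin had Dsg1a, Dsc3, Dsp and Pkp1 at 71.3 to 80.9 FPKM, overlapping in the same way, with Cdsn below them at 38.8. The lowest member was Dsg2 in both MC903 groups and Dsc2 in both untreated groups.

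The make-up of the cadherin families changed with MC903 in opposite directions for desmogleins and desmocollins. Dsg3, the deep-layer form, made up 45.2% ± 3.28 of the summed FPKM of the 3 desmogleins in MC903 skin labelled knockout against 8.19% ± 0.82 untreated, and 30.8% ± 2.54 in MC903 wild type skin against 10.1% ± 2.79 untreated (SD, n = 3 each). With Dsg1b and Dsg1c in the sum, a choice made after seeing the data, its share was 30.3% ± 2.48 in MC903 skin labelled knockout against 7.08% ± 0.71 untreated, and 22.3% ± 2.09 in MC903 wild type skin against 9.19% ± 2.49 untreated. Dsc1, the upper-layer form, made up 52.8% ± 2.78 of the 3 desmocollins in MC903 skin labelled knockout against 33.5% ± 0.97 untreated, and 43.9% ± 0.50 in MC903 wild type skin against 19.2% ± 4.29 untreated. Dsc2 held 6.38% to 7.64% of desmocollin FPKM in MC903 skin labelled knockout against 1.26% to 1.39% untreated, and 6.09% to 7.57% in MC903 wild type skin against 1.19% to 3.27% untreated.

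**Figure D3:**
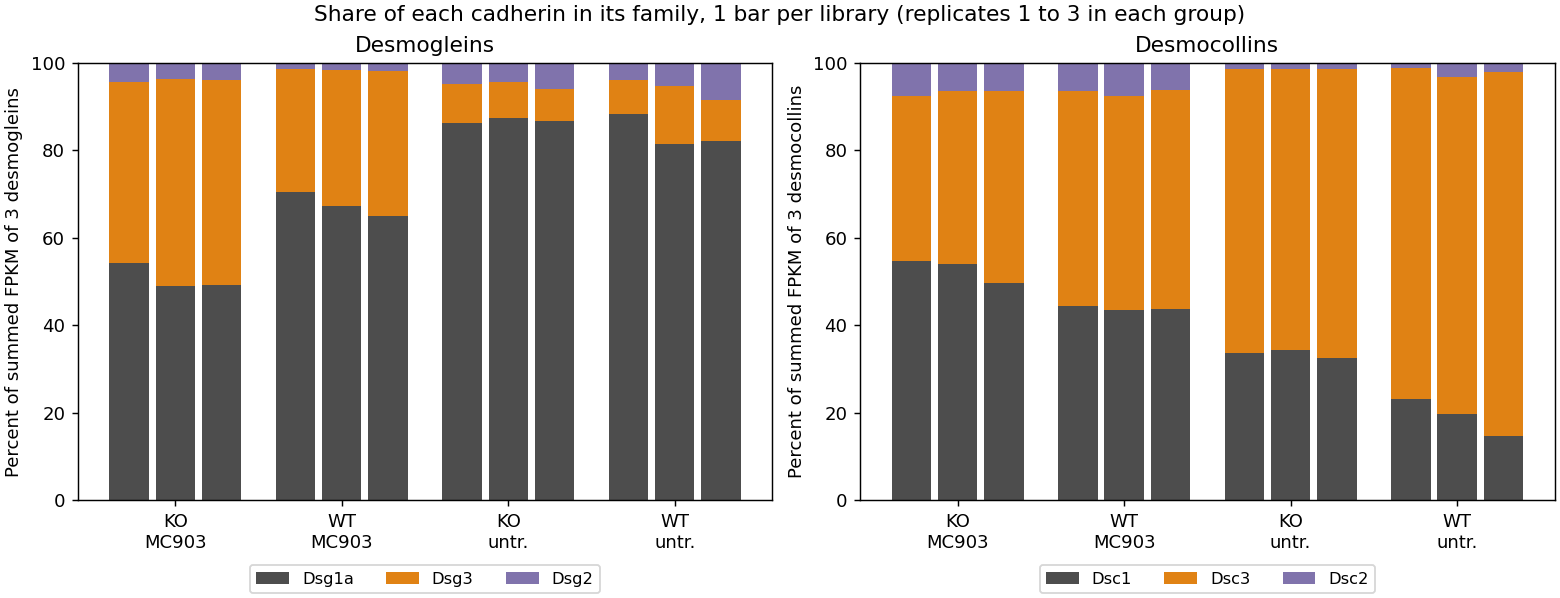
Percent of the summed FPKM of 3 desmogleins (left) and 3 desmocollins (right) held by each gene, with 1 bar per library in the order of replicates 1 to 3; untr. stands for untreated and KO for labelled knockout. The Dsg3 and Dsc1 parts are both larger in every MC903 library than in any untreated library of either genotype.

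Ratios of members within a library do not depend on how libraries are scaled, and 5 were compared over 4 pairs of groups. With 3 libraries against 3 the exact two-sided permutation test cannot go below p = 0.1, and after adjustment over the 20 comparisons the smallest value was 0.13. The ratio of Dsg1a to Dsg3 was 1.03 to 1.31 in MC903 skin labelled knockout against 9.65 to 11.9 untreated, and 1.96 to 2.51 in MC903 wild type skin against 6.16 to 11.4 untreated. With Dsg1b and Dsg1c added to Dsg1a, the log2 differences between MC903 and untreated skin were -2.50 in skin labelled knockout and -1.47 in wild type skin, against -3.24 and -1.95 for Dsg1a alone. The ratio of Dsc1 to Dsc3 was 1.13 to 1.45 in MC903 skin labelled knockout against 0.49 to 0.53 untreated, and 0.87 to 0.91 in MC903 wild type skin against 0.18 to 0.31 untreated. Pkp1 over Pkp3 was 3.48 to 3.82 in MC903 skin labelled knockout against 2.52 to 2.73 untreated, a log2 difference of 0.48. In wild type skin this ratio was 1.91 to 2.23 after MC903 against 2.32 to 2.99 untreated, a log2 difference of -0.27. Cdsn over Dsp was 2.02 to 2.24 in MC903 skin labelled knockout against 0.78 to 0.86 untreated, and 1.68 to 2.09 in MC903 wild type skin against 0.45 to 0.50 untreated. In 15 of the 20 comparisons the groups did not overlap, each with an exact permutation p of 0.1 and an adjusted p of 0.13. The exceptions were Dsg1a over Dsg3 and Pkp1 over Pkp3 between untreated genotypes, Cdsn over Dsp between MC903 genotypes, and Dsc1 over Dsc2 between MC903 genotypes and in the MC903 response of wild type skin. No share was computed for ratios of other gene pairs, so the count of 15 is not read as a trait of the members. Levels of single genes did not overlap for 31.1% of all genes between untreated genotypes and for 62.7% to 64.1% in the other comparisons.

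Other desmosome genes were measured beside the members. For this list and those below, 47.9% of all genes passed after MC903 in skin labelled knockout and 63.0% in wild type skin. For the difference of responses 39.7% passed. Of 6 measured (Dsg1b, Dsg1c, Dsg4, Jup, Pkp2 and Perp), 2 rose and 1 fell after MC903 in skin labelled knockout (median log2 fold change 0.33) and 4 rose in wild type skin (1.28). The one that fell was Dsg4, at 0.13 FPKM on average in MC903 skin labelled knockout against 0.97 untreated. It kept this call in 6 of 14 alternatives. Dsg1c averaged 0.15 and 0.13 FPKM in those groups, so both genes lay near the floor there. In wild type skin Dsg1c was among the genes that rose, at 1.29 FPKM after MC903 against 0.57 untreated. That call was kept in 9 of 14 alternatives (limma adjusted p up to 0.13). Jup, which encodes plakoglobin, averaged 99.1 ± 21.7 FPKM in MC903 skin labelled knockout against 70.8 ± 7.06 untreated (0.46 ± 0.18, limma adjusted p = 0.05, just under the threshold, and up to 0.25 in the alternatives). In MC903 wild type skin it averaged 217 ± 32.9 FPKM against 42.9 ± 6.68 untreated (2.33 ± 0.18, limma adjusted p = 8.4e-07). The response of 3 of the 6 was lower in skin labelled knockout: Jup (-1.87 ± 0.25, limma adjusted p = 0.00031), Perp, a membrane protein of desmosomes (-1.48 ± 0.28, limma adjusted p = 0.0021), and Dsg1b (-1.36 ± 0.39, limma adjusted p = 0.018, and 0.059 with libraries scaled to equal sums). Their median difference was -1.07, and that of all genes -0.01.

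Plakins and keratins are the partners of the desmosome on the filament side. Of 7 plakins and keratins 2 rose and 2 fell after MC903 in skin labelled knockout (median -0.36), and 5 rose in wild type skin (1.81). All 7 had a lower response in skin labelled knockout (median difference -2.13), such as envoplakin, Evpl (-2.87 ± 0.30, limma adjusted p = 8.7e-05), and the basal keratin Krt14 (-2.18 ± 0.27, limma adjusted p = 0.00021). Krt14 averaged 3427 ± 596 FPKM in MC903 skin labelled knockout against 1103 ± 69.2 untreated, and 11859 ± 2106 in MC903 wild type skin against 846 ± 104 untreated.

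Adherens junctions are the other cadherin-based contacts of keratinocytes. Of 10 genes 5 rose after MC903 in skin labelled knockout (median 0.22), and 7 rose and 1 fell in wild type skin (0.89). Of all genes 47.9% and 63.0% passed in those comparisons, 25.0% and 32.6% higher. The response of 5 was lower and of 1 higher in skin labelled knockout (median difference -0.63). Nectin1, an adhesion receptor, differed by -2.06 ± 0.20 (limma adjusted p = 6.6e-05) and Nectin4 by -2.48 ± 0.28 (limma adjusted p = 0.00013), and the classical cadherin Cdh3 by -1.10 ± 0.19 (limma adjusted p = 0.0013).

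Of 8 proteases and inhibitors that act on corneodesmosomes, 4 rose and 2 fell after MC903 in skin labelled knockout (median 0.41), and all 8 rose in wild type skin (1.63). All 8 had a lower response in skin labelled knockout (median difference -1.55). Klk5, a kallikrein that cuts corneodesmosin, averaged 21.1 ± 3.75 FPKM in MC903 skin labelled knockout against 39.4 ± 2.73 untreated, a fall, and 54.1 ± 3.80 in MC903 wild type skin against 17.8 ± 7.17 untreated, a rise (difference of response -2.55 ± 0.34, limma adjusted p = 0.00029). Klk7, a more abundant kallikrein of the list, rose in both genotypes. It averaged 653 ± 120 FPKM in MC903 skin labelled knockout against 151 ± 14.9 untreated. In wild type skin it averaged 1085 ± 223 FPKM after MC903 against 78.9 ± 28.2 untreated. Of 5 epidermal transcription factors 2 rose in skin labelled knockout (median -0.21) and all 5 in wild type skin (1.25), and all 5 had a lower response in skin labelled knockout (median difference -1.44), with Klf4 at -1.50 ± 0.24 (limma adjusted p = 0.00083).

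**Figure D4:**
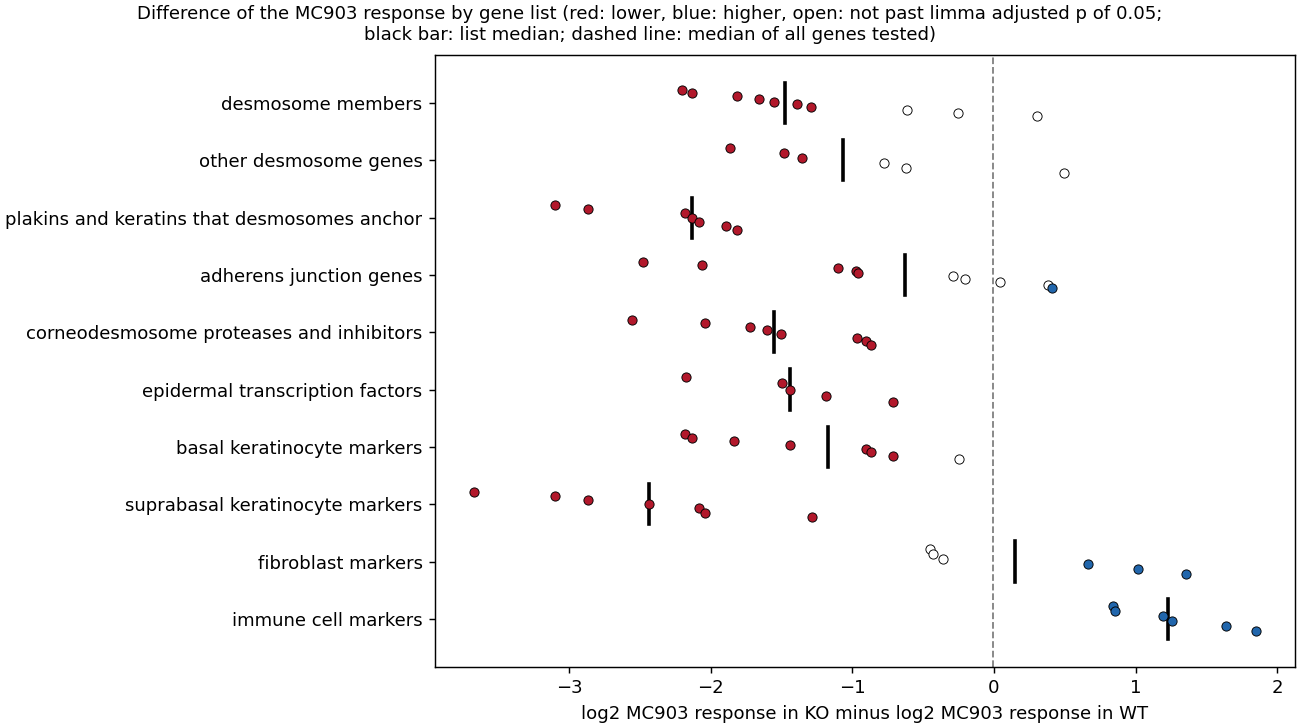
Each point is 1 gene, placed by its log2 MC903 response in skin labelled knockout (KO) minus that in wild type skin (WT); colours give the limma call and black bars the list medians. Most points of the desmosome and keratinocyte lists lie left of the median of all genes (-0.01), and those of the immune cell list lie right of it.

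Markers of cell types moved with these results, and their part in them was not tested. Of all genes tested, 47.9% passed after MC903 in skin labelled knockout and 63.0% in wild type skin. Between genotypes 52.1% passed after MC903 and 11.7% untreated, and 39.7% passed for the difference of responses. None of the markers tested was at 0 in every library of a group. Krt5, Krt14 and Trp63 (basal) and Krt1 and Krt10 (suprabasal) also stand in the keratin or transcription factor lists above. After MC903, basal keratinocyte markers rose for 4 and fell for 2 of 8 in skin labelled knockout (median 0.34), and rose for 7 and fell for 1 in wild type skin (1.13). Suprabasal markers rose for 2 and fell for 3 of 7 in skin labelled knockout (-1.05), and rose for 5 in wild type skin (1.41). The response in skin labelled knockout was lower for 7 of 8 basal markers (median difference -1.17) and for all 7 suprabasal markers (-2.43). Immune cell markers rose for 5 of 6 in skin labelled knockout (1.47), and rose for 2 and fell for 2 in wild type skin (-0.28), with a higher response in skin labelled knockout for all 6 (1.23). Fibroblast markers rose for 1 and fell for 3 of 6 in skin labelled knockout (-0.80) and fell for all 6 in wild type skin (-1.23), with a higher response in skin labelled knockout for 3 (0.15). Between MC903 genotypes all 8 basal keratinocyte markers were lower in skin labelled knockout (median -1.16), with summed levels of 3502 to 4893 FPKM against 12388 to 17330 in wild type skin. Krt14 alone, at 3427 ± 596 against 11859 ± 2106 FPKM, made up most of these sums. Of 7 suprabasal markers 6 were lower (median -1.31), with sums of 2431 to 3645 against 5125 to 9702 FPKM. All 6 immune cell markers were higher in skin labelled knockout, with sums of 184 to 247 against 57.5 to 66.9 FPKM, and so were all 6 fibroblast markers, with sums of 1681 to 2161 against 519 to 645 FPKM. Between untreated genotypes none of the 8 basal markers passed (sums of 2019 to 2310 FPKM in skin labelled knockout against 1733 to 2026 in wild type skin), 4 of 7 suprabasal markers were higher (4388 to 5088 against 2122 to 3207 FPKM), and 4 of 6 fibroblast markers were higher (4427 to 5128 against 1100 to 1987 FPKM). Collagen genes made up most of the fibroblast sums in untreated skin labelled knockout. Against untreated wild type skin, Col1a1 averaged 1590 ± 118 against 298 ± 143 FPKM, Col3a1 1307 ± 111 against 275 ± 96.3, and Col1a2 898 ± 79.4 against 207 ± 77.7. Dcn averaged 607 ± 53.3 against 570 ± 125 FPKM. Untreated wild type replicate 3, the lowest of its group for all 10 members, also had the highest summed muscle markers of its group, at 3842 FPKM. Of 8 hair markers tested after MC903, 7 fell and 1 (Tchh) rose in skin labelled knockout (median -2.90), and in wild type skin Tchh rose and the other 7 did not pass (median -1.15). The difference of responses passed for none of the 8. All 6 muscle markers fell in skin labelled knockout and 3 in wild type skin. Sebaceous gland markers fell for 5 and 4 of 6, and adipocyte markers for 3 and 5 of 5, in skin labelled knockout and wild type skin in that order. Endothelial markers rose for 2 and fell for 1 of 6 in skin labelled knockout and fell for all 6 in wild type skin, and Schwann cell markers fell for 4 and 5 of 5. Dsg4 is a desmoglein of hair, and the summed hair shaft and inner root sheath markers differed widely within untreated groups, from 147 to 334 FPKM in skin labelled knockout and from 1.54 to 192 FPKM in wild type skin.

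Across the 12 libraries the genes most like the mean standardised level of the members, among 12832 candidates, were Zfp750 (Pearson r = 0.989), Klf3 (r = 0.988), Pnpla1 (r = 0.984), Pglyrp4 (r = 0.982) and Oas1f (r = 0.981). The libraries form 4 groups, so these values mainly describe group means. Zfp750 stood at 26.7 ± 4.42 FPKM in MC903 skin labelled knockout, 50.4 ± 5.99 in MC903 wild type skin, 21.7 ± 2.98 in untreated skin labelled knockout and 11.4 ± 4.18 in untreated wild type skin. The members themselves divided by their nearest genes. Dsg3 was most like Prc1, a mitotic spindle gene (r = 0.991), and Dsc2 like Isg20l2 (r = 0.993), whereas Dsc3 was most like Grhl1, a grainyhead-like transcription factor (r = 0.976), and Dsg2 like the proteoglycan gene Gpc3 (r = 0.972).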

How the data were processed

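RNA of 12 mouse skin libraries was sequenced, 3 per group. The authors deposited FPKM per gene, and per the submitters' processing notes reads were counted with featureCounts and the genome was mm10. Neither aligner, annotation release nor strand setting is given in the sources used here. FPKM steps gave whole reads for 100% of values within 0.01, so 1 read per kilobase was worth 0.0496 to 0.0615 FPKM in these libraries. It was worth 0.0598 FPKM in MC903 wild type replicate 1, with 18239321 reads on genes. In untreated wild type replicate 1 it was worth 0.0502 FPKM, with 17956902 reads. The deposited scaling thus held a factor other than reads on genes, which the sources used here do not name. Genes with at least 0.5 FPKM in at least 3 libraries (17646, all 10 members among them) were tested on log2(FPKM + 0.5) with limma 3.58.1 in R 4.3.3, with a trend, 4 groups, 8 residual degrees of freedom and 5 contrasts. P-values were adjusted by Benjamini and Hochberg over all genes, with a threshold of 0.05. Fold changes on this scale understate those of low genes. The test was run on simulated data with a fixed spread and few genes changed. This checks the code, not the error rate in these data.

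Voom on the recovered reads called 8579 and 11109 genes for MC903 in skin labelled knockout and wild type skin, 9201 and 2434 between genotypes after MC903 and untreated, and 6975 for the difference of responses. Ratios were compared by exact permutation (scipy 1.17.1). Other alternatives were other pseudocounts, filters and scalings, a replicate block, fewer groups and leaving out each library. "Scaled to equal sums" means FPKM divided by their sum in each library.

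The members and gene lists were chosen with earlier results of these data known. All members were named. Of each list all measured genes were counted and up to 4 with the smallest adjusted p named per comparison, and the 5 genes with the highest Pearson r were named for likeness. Motifs were searched in the RefSeq promoters of Dsp and Cdsn, the 2 of 10 members matched. The 3 ganglion samples were not analysed here.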

Additional observations from a re-analysis of the deposited data

Results flagged for a closer look

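For 7 members the MC903 response differed between genotypes by limma's test of the difference, given as skin labelled knockout minus wild type skin on the log2 scale. The differences were -1.55 for Dsg1a, -1.81 for Dsc1, -1.30 for Dsc3, -1.66 for Dsp, -1.39 for Pkp1, -2.13 for Pkp3 and -2.20 for Cdsn. Across all genes tested 39.7% passed this test.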

How the results depend on the processing

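The 7 differences of response passed under all 20 alternatives run for each. Between genotypes after MC903, 1 member was lower with libraries scaled to equal sums, against 6 as deposited, and 1 member had a higher response in skin labelled knockout on that scale, against 0. Between untreated genotypes, 1 member was higher with no filter and 1 with only the groups compared, against 4, and that fit called 613 genes in all, against 2064. Signs turned with equal sums for Dsg1a after MC903 in wild type skin (-0.068), for Dsg3 between MC903 genotypes (0.25, and 0.048 at equal total reads) and for the Dsg3 difference of responses (0.030). The cause was not tested. Equal sums shifted the median over all genes by -0.16 and -0.38 for MC903 in skin labelled knockout and wild type skin, by 0.23 between MC903 genotypes and by 0.23 for the difference. The share of called genes that were higher became 33.6%, 26.7%, 73.5% and 71.7% in these comparisons, against 52.1%, 51.8%, 49.8% and 50.3% as deposited. At equal total reads it was 40.0% for MC903 in wild type skin and 61.9% for the difference, and between untreated genotypes 49.7% against 61.1%. The median over all genes shifted there by -0.17 for MC903 in wild type skin and by 0.12 for the difference.

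Leaving out 1 library gave 3 to 6 members lower between MC903 genotypes, 1 to 6 members higher and 752 to 3562 genes in all between untreated genotypes, and 0 to 1 members with a higher response in skin labelled knockout. Dsg3 ranged from -0.20 to 0.089 between MC903 genotypes, from -0.15 to 0.43 between untreated genotypes and from -0.48 to 0.10 in its difference of responses, and Dsc2 from -0.19 to 0.41 between untreated genotypes. The log2 ratio of Pkp1 to Pkp3 between untreated genotypes ranged from -0.0033 to 0.18. The fewest reads were 122 to 2098 per library for Dsc2 and 311 to 1084 for Dsg2.

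Over all genes, same-numbered libraries correlated in their deviations by -0.13 to 0.17, over 0.1 in 3 of 18 pairs. Of 12 libraries 4 correlated best with their own number, so the numbers were not taken to pair the samples. For the members alone, replicate 3 was the lowest of its group in 39 of 40 combinations of member and group, which count the same libraries once per member. Whether the members share an effect of replicate number was not tested. With the replicate block 7 members rose and 2 fell for MC903 in skin labelled knockout, 8 rose and 1 fell in wild type skin, 7 were lower and 1 higher between MC903 genotypes, 5 were higher between untreated genotypes, and 7 had a lower response in skin labelled knockout. Calls gained with the block were Dsp for MC903 in skin labelled knockout (limma adjusted p = 0.017), Dsc2 between MC903 genotypes (limma adjusted p = 0.029) and Dsp between untreated genotypes (limma adjusted p = 0.009).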

Other observations

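Replicate 3 was the lowest library of its group for 39 of 40 combinations of member and group, whereas 32.1% to 38.8% of all genes were lowest in replicate 3. These combinations count the same libraries once per member and are not independent of each other. Untreated wild type replicate 3 also stood apart in marker sums. Its muscle markers summed to 3842 FPKM, against 2124 and 2006 in replicates 1 and 2, and its hair markers to 1.54 FPKM, against 64.8 and 192.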
